A study of Caenorhabditis elegans with 6 samples.

Results

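The genes described here encode proteins that pair, align and recombine chromosomes in meiosis. The list holds 36 genes of the 46778 in the count tables, chosen by name for their known roles: 6 of the synaptonemal complex, 7 of the chromosome axis and its cohesin, 4 of the pairing centres, 5 of break formation, 5 of break processing and repair, 6 of crossover formation, and 3 that encode kinases or an ATPase. All 36 had enough reads to be tested. RNA was measured by sequencing in whole Caenorhabditis elegans harvested at the L4 stage, the last larval stage. Wild-type worms (the laboratory strain N2), worms with the scav-4 allele unk59 (strain CGZ413) and worms with the scav-4 allele unk49 (strain CGZ337) had been grown from L1 on E. coli OP50, the usual laboratory food, or on the bacterium Microbacterium sp. JUb74. The 5 groups, with 2 libraries each, were wild type and unk59 on either food, and unk49 on OP50. Worms with unk49 on JUb74 were not analysed here. The labels do not say what the alleles change in scav-4, which encodes a relative of the scavenger receptor CD36 of mammals. Whether libraries of 1 group came from separate cultures is not given either, so the p-values may measure technical spread alone.

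In the worm's gonad, germ cells leave a pool of dividing cells and enter meiotic prophase, in which each chromosome must find its partner. Pairing centres, which are repeated sequences near a chromosome end, recruit zinc-finger proteins that tie the chromosome to the nuclear envelope. The axis proteins and a meiotic cohesin form a core along each chromosome, and the synaptonemal complex then joins the partners lengthwise. The enzyme SPO-11 cuts the DNA, repair proteins process the cuts, and a set of crossover factors turns a chosen cut on each chromosome pair into an exchange. These proteins act in germ cells, although several of the repair proteins also serve dividing cells elsewhere. In RNA from whole worms, fewer germ cells and less messenger RNA per germ cell cannot be told apart.

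Gene counts summed to between 21937088 and 22692632 read pairs per library. Levels are given as CPM, counts per megaread of the library after scaling between libraries. At this depth the lowest count of any of these genes in any library was 4 read pairs, for zhp-1 and zhp-2, so values under 1 CPM rest on few reads. The libraries of a group differed by far more than counting noise, with a chi-square heterogeneity per degree of freedom from 19.8 in wild type on OP50 to 88.9 in unk49 on OP50. Exons of 14 of the 36 genes overlap exons of another gene in the WBcel235 annotation, where reads that fit both genes were not assigned. Since the counts were taken without regard to strand, this holds for antisense neighbours too. The overlap covers 29.2% of the exon bases of zhp-2, 26.6% of zhp-4, 16.9% of syp-1 and 15.9% of coh-4. The genes htp-1 and htp-2, and likewise coh-3 and coh-4, are close copies of each other, so reads that match both copies were left out and their levels are uncertain.

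None of the 36 genes lies on the X chromosome, against 14.2% of all genes tested. Chromosome IV holds 12 of them and chromosome V holds 10. The pairing-centre genes zim-1, zim-2, zim-3 and him-8 lie side by side on the plus strand of chromosome IV, within 16889 bases from 10547086 to 10563974 (WBcel235), and zim-1 and zim-2 share 223 exon bases.

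The 36 genes fell into a low and a high range according to the group. Their summed level was 236.9 and 270.0 CPM in the libraries of wild type on OP50, 109.7 and 163.2 CPM in wild type on JUb74, and 128.7 and 108.1 CPM in unk59 on OP50. It was 543 and 768 CPM in unk59 on JUb74 and 1210 and 1004 CPM in unk49 on OP50. The sums of unk59 on JUb74 and unk49 on OP50 thus lay above those of each other group, and wild type on OP50 lay between. Oocyte genes were highest and moulting genes lowest in the same groups, unk59 on JUb74 and unk49 on OP50, and their part in the results was not tested.

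**Figure D1:**
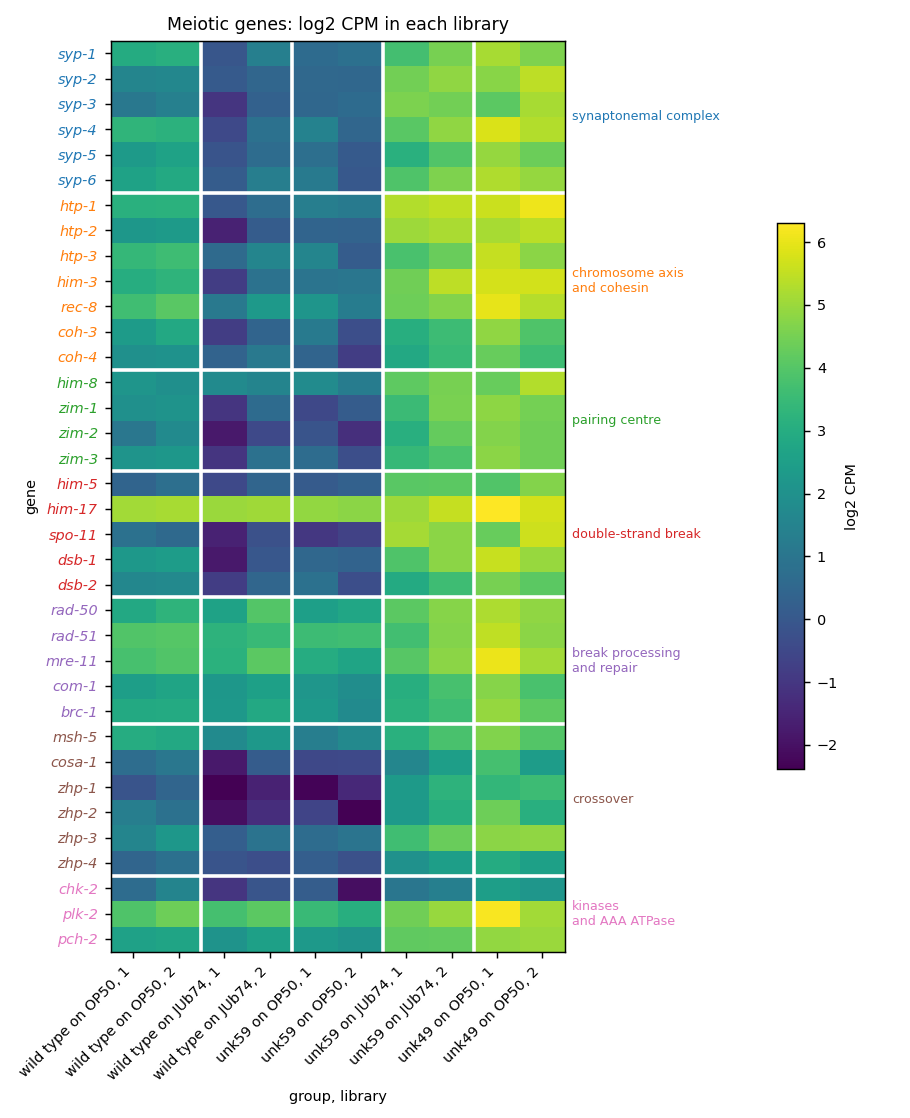
Heat map of the level of each meiotic gene (rows, grouped and coloured by role) in each of the 10 libraries (columns, 2 for each group), as log2 CPM. The libraries of unk59 on JUb74 and unk49 on OP50 are brightest, while him-17 and rad-51 differ least between columns.

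How far a gene ranged over the libraries depended on the gene. Between its lowest and highest library, dsb-1 differed by a ratio of 166.7, spo-11 by 149.0 and htp-2 by 126.6, with lowest counts of 6, 7 and 7 read pairs. The ratio was 2.87 for him-17, 4.70 for rad-51 and 6.55 for rad-50. Per kilobase of exon, the highest mean level in wild type on OP50 was that of him-17 at 11.3 CPM per kb, followed by rad-51 at 10.4 and plk-2 at 8.31. In unk59 on JUb74 and in unk49 on OP50 the highest was htp-1, at 34.0 and 47.6 CPM per kb. The meiotic kinase gene chk-2 was lowest of the 36 in wild type on OP50 (0.894 CPM per kb), in unk59 on OP50 (0.268), in unk59 on JUb74 (0.908) and in unk49 on OP50 (2.01).

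The first comparison was the diet in wild type. On JUb74, 17 of the 36 genes were lower and 0 higher past an adjusted p of 0.05 by edgeR's quasi-likelihood test, where 6.29% of all genes tested were lower and 2.65% higher. The genes that fell were 5 of 6 of the synaptonemal complex, 6 of 7 of the axis and cohesin, 3 of 4 of the pairing centres, 1 of 5 of break formation, 2 of 6 of crossover formation, and none of the repair genes or the kinase and ATPase genes. The median log2 fold change of the 36 genes was -1.55, and that of all genes tested was 0.00 when rounded. The groups did not overlap for 31 of the 36 genes, all lower on JUb74, and 32.7% of all genes tested were lower without overlap. The exceptions were him-5, rad-50, mre-11, com-1 and plk-2.

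The number that fell in wild type rests on single libraries. Its range with a library left out is given in the last section. The median log2 fold change of the 36 genes was -1.65 and -1.43 without library 1 and library 2 of wild type on OP50. It was -1.16 and -2.52 without library 1 and library 2 of wild type on JUb74. Without library 1 and library 2 of unk59 on JUb74 it was -1.56 and -1.68. Those libraries are not compared here but enter through the filter, scaling and spread of the joint fit, and their separate parts were not tested. In wild type on JUb74, library 1 was the lower in 34 of 36 genes, with a median ratio of library 1 to library 2 of 0.518. Without library 2 of that group, 15 of the 17 values moved by more than 1.5 times, to between -2.67 and -4.26, and without library 1 this was so of zim-3 (-1.29) and dsb-1 (-2.38). The call of htp-1 held under every one of the 19 alternatives tried, and each of the other 16 was lost under at least 1.

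In unk59 the diet went with a change the other way. There 34 of the 36 genes rose on JUb74 and 0 fell, against 33.5% of all genes tested that were higher and 26.3% that were lower. Their median log2 fold change was 3.15, and that of all genes tested was 0.08. All 6 synaptonemal complex genes, all 7 axis and cohesin genes, all 4 pairing-centre genes, 4 of 5 break genes, 4 of 5 repair genes, all 6 crossover genes and all 3 kinase and ATPase genes were among those that rose. The genes that did not pass were him-17, at 0.46 (adjusted p 0.117, SE 0.234), and rad-51, at 0.67 (adjusted p 0.117, SE 0.341). Left-out libraries lowered the count most without library 2 of unk59 on JUb74 (28) and without library 2 of unk59 on OP50 (30). No library of unk59 on JUb74 overlapped one of unk59 on OP50 for any of the 36 genes, all higher on JUb74, and 45.1% of all genes tested were higher without overlap. Without library 1 of unk59 on OP50, 8 values moved by more than 1.5 times, to between 3.23 and 5.08, without library 2 of that group 2 did (chk-2 to 1.03 and zhp-2 to 3.32), and without library 2 of unk59 on JUb74 him-3, zim-1 and zim-2 did (3.39 to 3.66).

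Whether food had another effect in unk59 than in wild type was asked with an interaction term. It was past the threshold for 33 of the 36 genes, each with a more positive change on JUb74 in unk59 than in wild type. Of all genes tested, 23.3% had such a difference and 20.0% had one the other way. The median of the 36 differences was 5.05 on the log2 scale. The values that did not pass were 0.55 (adjusted p 0.204, SE 0.3301) for him-17, 1.42 (adjusted p 0.0751, SE 0.581) for rad-50 and 1.29 (adjusted p 0.0565, SE 0.484) for rad-51. The median lay between 4.52 and 5.75 with any library left out, the lowest and highest being those with library 1 or library 2 of wild type on JUb74 left out. The number that passed lay between 29 and 34. Without library 2 of wild type on JUb74, 23 single values moved by more than 1.5 times, to between 2.47 and 8.71, and without library 1 of that group 5 did (3.33 to 6.35). Without library 1 of unk59 on OP50, 9 did (4.90 to 7.75), and without library 2 zhp-2 and chk-2 did, the former to 5.99.

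**Figure D2:**
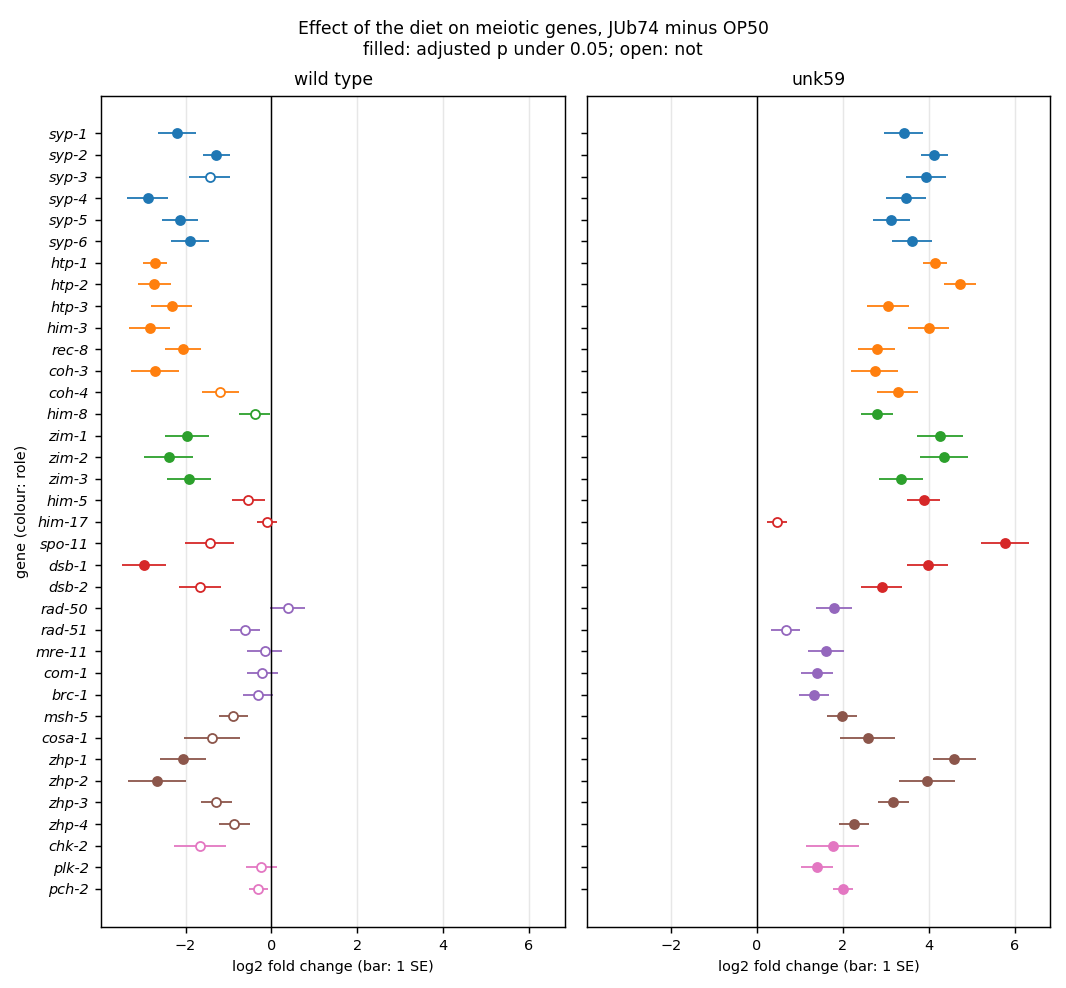
Log2 fold change of each meiotic gene on JUb74 against OP50 in wild type (left) and in unk59 (right), with bars of 1 standard error and colours by role. Filled points passed an adjusted p of 0.05, which was so of 17 genes in wild type, all below 0, and of 34 genes in unk59, all above 0.

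Next, the alleles were each set against wild type on OP50, from the same wild-type libraries. In unk59, 0 of the 36 genes had an adjusted p under 0.05 by edgeR's quasi-likelihood test, against 0.0125% of all genes tested that were lower and 0% that were higher, although 26 had an unadjusted p under 0.05, as had 11.6% of all genes tested. All 36 log2 fold changes were negative, with a median of -1.64, while 45.1% of all genes tested had a negative value and their median was 0.04. For each of the 36 genes the unk59 libraries lay below both wild-type libraries, which was so of 24.5% of all genes tested. The smallest adjusted p was that of htp-1, at -1.90 (adjusted p 0.0921, SE 0.265). DESeq2 called 17 of the 36 genes lower and 2.69% of all genes it tested. Without a filter on low counts, edgeR called 5 of the 36 lower and 0.420% of all genes.

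In unk49 on OP50, 35 of the 36 genes rose against wild type and 0 fell, where 27.2% of all genes tested were higher and 19.1% lower. Their log2 fold changes had a median of 2.32, and that of all genes tested was 0.11. The gene that did not pass was chk-2, at 1.16 (adjusted p 0.107, SE 0.544). The unk49 libraries lay above both wild-type libraries for all 36 genes, and for 39.8% of all genes tested. Without library 1 of unk49 on OP50, 27 genes passed and 7 values moved by more than 1.5 times, to between 0.782 for plk-2 and 1.85 for zhp-2. Without library 2, syp-3, him-8 and spo-11 did so (2.17 to 3.49). Leaving out library 1 or library 2 of wild type on OP50 left 27 and 29 genes past the threshold.

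Against unk59 on the same food, unk49 was higher in 36 of the 36 genes, with a median log2 fold change of 4.10, where 30.2% of all genes tested were higher. All 36 passed under every alternative tried. The single values that moved by more than 1.5 times with a library of unk59 on OP50 or unk49 on OP50 left out ranged from 1.75 for plk-2 to 6.23 for zhp-2, and all stayed past the threshold. On JUb74, unk59 was higher than wild type in 31 of 36 genes, where 33.0% of all genes tested were higher, with a median of 3.32. Not past the threshold there were him-17 (0.26, adjusted p 0.356), mre-11 (0.76, adjusted p 0.132), rad-50 (0.99, adjusted p 0.0602), brc-1 (0.81, adjusted p 0.0696) and plk-2 (0.76, adjusted p 0.103), and him-17 and mre-11 had overlapping groups. The other 34 were higher without overlap, as were 43.8% of all genes tested. Without library 2 of wild type on JUb74, 17 of these values moved by more than 1.5 times, to between 2.30 and 6.71. Without library 1 of that group 5 did (1.96 to 4.45), and without library 2 of unk59 on JUb74 zim-2 and rad-51 did, the latter to 0.31 (adjusted p 0.465). With library 1 of wild type on JUb74 left out the count was 28, and with library 2 of unk59 on JUb74 left out it was 27.

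**Figure D3:**
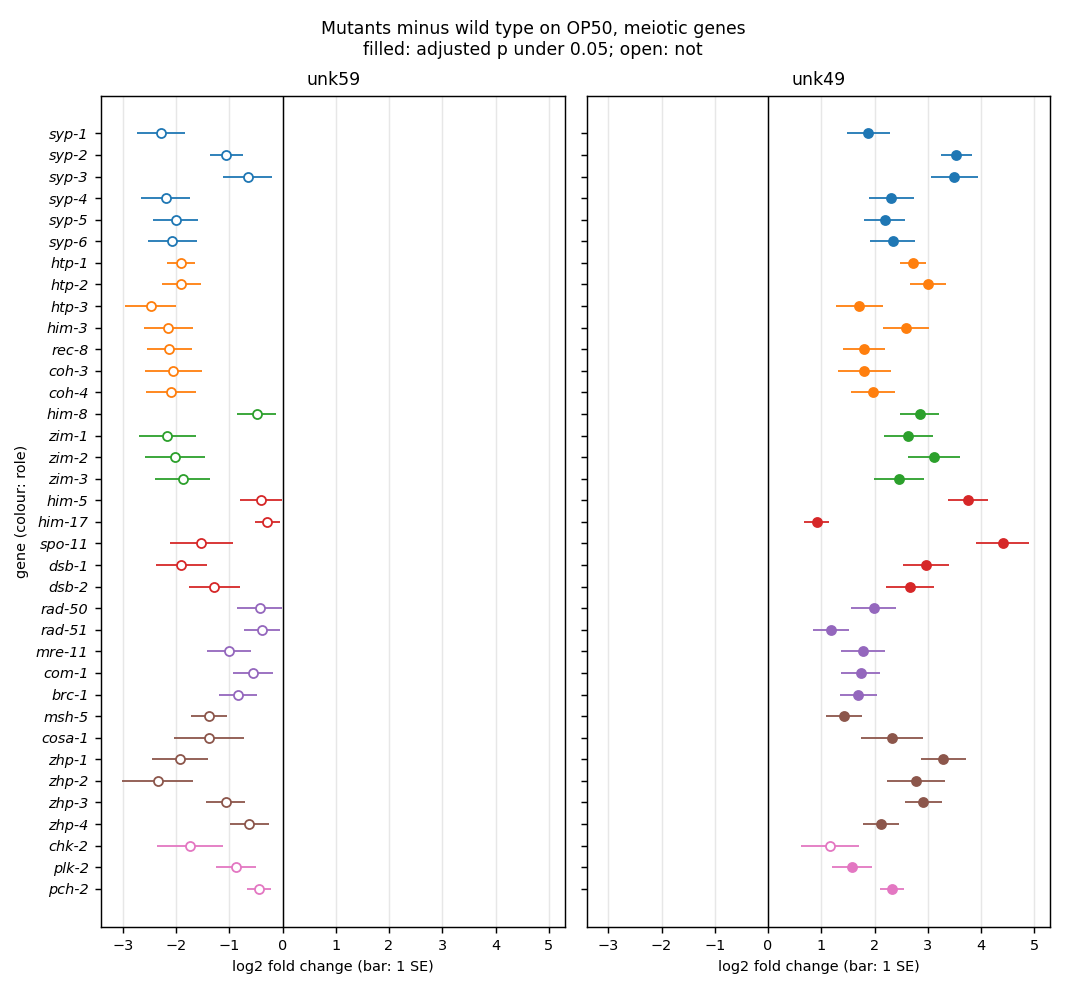
Log2 fold change of each meiotic gene in unk59 (left) and unk49 (right) against wild type on OP50, with bars of 1 standard error and colours by role. All 36 values lie below 0 in unk59, where 0 passed an adjusted p of 0.05, and above 0 in unk49, where 35 passed.

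Rises and falls of single genes are given as log2 fold changes. The synaptonemal complex was represented by its central-region proteins SYP-1 to SYP-6. The gene syp-4 was at 9.81 and 9.27 CPM in wild type on OP50, 0.721 and 1.83 in wild type on JUb74, 2.79 and 1.38 in unk59 on OP50, 16.96 and 29.2 in unk59 on JUb74 and 55.9 and 39.1 in unk49 on OP50. Wild type on OP50 lay between a low pair of groups and a high pair, with no overlap. For syp-4 the log2 fold change on JUb74 was -2.88 (adjusted p 0.019, SE 0.4804) in wild type, or -3.87 (adjusted p 0.0566) without library 2 of that group, and 3.47 (adjusted p 0.000315, SE 0.4703) in unk59. The gene syp-2 stood at 2.93 and 3.11 CPM in wild type on OP50, 1.06 and 1.401 in wild type on JUb74, 1.47 and 1.43 in unk59 on OP50, 21.96 and 29.1 in unk59 on JUb74 and 27.2 and 43.1 in unk49 on OP50. Its log2 fold change in wild type on JUb74 was -1.29 (adjusted p 0.0395, SE 0.316), and it rose in unk49 against wild type by 3.54 (adjusted p 0.000231, SE 0.298). The values of syp-3 were 2.11 and 2.61 CPM in wild type on OP50, 0.481 and 1.23 in wild type on JUb74, 1.42 and 1.57 in unk59 on OP50, 24.4 and 21.7 in unk59 on JUb74 and 17.2 and 36.3 in unk49 on OP50. In unk49 the log2 fold changes of syp-2 and syp-3 were 3.54 and 3.498, the latter 2.78 without library 2, and those of the other syp genes lay between 1.88 and 2.34. Per kilobase, syp-3 stood at 0.470 and 0.616 times the level of syp-4 in wild type on OP50, at 3.14 and 1.62 times in unk59 on JUb74, and at 0.672 and 2.03 times in unk49 on OP50. No test of these ratios was made, and the libraries of unk49 lie on both sides of equal levels.

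The related genes syp-5 and syp-6 are known to share their work in the complex. Per-library values of syp-5 were 5.04 and 6.12 CPM in wild type on OP50, 0.913 and 1.61 in wild type on JUb74, 1.72 and 1.05 in unk59 on OP50, 8.69 and 15.5 in unk59 on JUb74 and 30.7 and 20.3 in unk49 on OP50. Those of syp-6 were 6.095 and 7.47 CPM in wild type on OP50, 1.11 and 2.505 in wild type on JUb74, 2.23 and 1.002 in unk59 on OP50, 15.2 and 24.4 in unk59 on JUb74 and 38.4 and 30.3 in unk49 on OP50. Per kilobase, the ratio of syp-5 to syp-6 stayed between 0.747 and 1.36 over the 10 libraries. Their log2 fold changes were 3.12 and 3.62 for the diet in unk59 and 2.19 and 2.34 in unk49 against wild type.

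Among axis genes, htp-1, htp-2, htp-3 and him-3 encode HORMA-domain proteins, and rec-8, coh-3 and coh-4 encode the kleisin subunits of meiotic cohesin. The level of htp-1 was 8.71 and 9.001 CPM in wild type on OP50, 1.009 and 1.66 in wild type on JUb74, 2.49 and 2.24 in unk59 on OP50, 39.05 and 44.5 in unk59 on JUb74 and 48.9 and 68.01 in unk49 on OP50. Its log2 fold change was -2.72 (adjusted p 0.00492, SE 0.279) for the diet in wild type, 4.14 (adjusted p 2.95e-05, SE 0.276) for the diet in unk59 and 2.72 (adjusted p 0.000308, SE 0.251) for unk49 against wild type. The close copy htp-2 stood at 4.67 and 5.09 CPM in wild type on OP50, 0.336 and 1.104 in wild type on JUb74, 1.32 and 1.29 in unk59 on OP50, 32.7 and 36.8 in unk59 on JUb74 and 35.98 and 42.6 in unk49 on OP50. The ratio of htp-1 to htp-2 per kilobase was 1.87 and 1.78 in wild type on OP50 and 1.20 and 1.22 in unk59 on JUb74, and in wild type on JUb74, where htp-2 had 7 read pairs in library 1, it was 3.02 and 1.51. In unk59 on JUb74 htp-2 rose by 4.73 (adjusted p 4.32e-05, SE 0.381) on the log2 scale.

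The axis gene him-3 was at 8.11 and 9.59 CPM in wild type on OP50, 0.577 and 1.87 in wild type on JUb74, 1.93 and 2.05 in unk59 on OP50, 21.2 and 42.9 in unk59 on JUb74 and 54.1 and 52.7 in unk49 on OP50. It fell in wild type on JUb74, with a log2 fold change of -2.83 (adjusted p 0.0194, SE 0.479), or -4.08 (adjusted p 0.0470) without library 2 of that group. For htp-3, which is needed for the other HORMA proteins to load, the log2 fold change in unk49 was 1.72 (adjusted p 0.0116, SE 0.4404), the smallest of the axis and cohesin genes. The cohesin gene rec-8 was at 12.6 and 17.01 CPM in wild type on OP50, 2.16 and 4.88 in wild type on JUb74, 4.41 and 2.39 in unk59 on OP50, 21.2 and 25.8 in unk59 on JUb74 and 62.97 and 40.3 in unk49 on OP50. Its log2 fold change was -2.06 (adjusted p 0.0257, SE 0.424) for the diet in wild type and 1.80 (adjusted p 0.00618, SE 0.401) for unk49 against wild type.

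The cohesin subunits COH-3 and COH-4 act in place of one another. Counts put coh-3 at 5.27 and 7.29 CPM in wild type on OP50, 0.577 and 1.32 in wild type on JUb74, 2.23 and 0.811 in unk59 on OP50, 8.39 and 11.99 in unk59 on JUb74 and 29.1 and 14.9 in unk49 on OP50. The copy coh-4 was at 3.94 and 4.096 CPM in wild type on OP50, 1.297 and 2.21 in wild type on JUb74, 1.32 and 0.573 in unk59 on OP50, 7.19 and 11.1 in unk59 on JUb74 and 19.4 and 12.1 in unk49 on OP50. The ratio of coh-3 to coh-4 per kilobase was above 1 in the 8 libraries outside wild type on JUb74, from 1.04 to 1.72, and 0.430 and 0.577 in wild type on JUb74. There coh-3 fell, with a log2 fold change of -2.71 (adjusted p 0.0263, SE 0.565), or -3.58 (adjusted p 0.0963) without library 2 of that group, while coh-4 did not pass, at -1.19 (adjusted p 0.126, SE 0.438). The difference between the copies was not tested, and the count of coh-3 in those libraries was small, at 0.577 and 1.32 CPM.

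Pairing-centre genes encode zinc-finger proteins, of which HIM-8 binds the X chromosome and ZIM-1, ZIM-2 and ZIM-3 bind autosomes. The X-chromosome factor him-8 was at 4.3996 and 3.83 CPM in wild type on OP50, 3.41 and 2.89 in wild type on JUb74, 3.501 and 2.39 in unk59 on OP50, 17.9 and 22.9 in unk59 on JUb74 and 19.6 and 39.7 in unk49 on OP50. Its log2 fold change did not pass for the diet in wild type, at -0.39 (adjusted p 0.565, SE 0.365). For unk59 against wild type on OP50, where 0 of the 36 genes passed, him-8 stood at -0.48 (adjusted p 0.665, SE 0.368). It rose in unk49 by 2.85 (adjusted p 0.000671, SE 0.365), or by 2.17 without library 2. The neighbouring zim-2 was at 2.06 and 3.38 CPM in wild type on OP50, 0.288 and 0.722 in wild type on JUb74, 0.913 and 0.4295 in unk59 on OP50, 8.56 and 18.9 in unk59 on JUb74 and 25.7 and 21.7 in unk49 on OP50. For zim-1, zim-2 and zim-3 the diet in wild type gave log2 fold changes of -1.97, -2.39 and -1.92, with adjusted p of 0.0475, 0.0368 and 0.0492. Per kilobase, him-8 stood at 1.80 and 1.46 times the level of zim-1 in wild type on OP50 and at 11.5 and 2.97 times in wild type on JUb74.

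Break formation genes differed among themselves. The gene spo-11, which encodes the cutting enzyme, was at 1.79 and 1.49 CPM in wild type on OP50, 0.336 and 0.849 in wild type on JUb74, 0.507 and 0.6204 in unk59 on OP50, 35.1 and 27.7 in unk59 on JUb74 and 19.4 and 50.1 in unk49 on OP50. It had the largest rise of the 36 genes in unk59 on JUb74 against unk59 on OP50, by 5.78 (adjusted p 7.63e-05, SE 0.563), and in unk49 against wild type on OP50, by 4.41 (adjusted p 0.000474, SE 0.501), or 3.49 without library 2 of unk49. In wild type on JUb74 it did not pass, at -1.43 (adjusted p 0.154, SE 0.571). The gene dsb-1, needed for break formation, was at 4.72 and 5.401 CPM in wild type on OP50, 0.288 and 0.976 in wild type on JUb74, 1.42 and 1.29 in unk59 on OP50, 14.9 and 27.9 in unk59 on JUb74 and 48.1 and 31.02 in unk49 on OP50. Its log2 fold change for the diet in wild type was -2.96 (adjusted p 0.0205, SE 0.509), and it was -4.26 (adjusted p 0.0563) without library 2 and -2.38 (adjusted p 0.0509) without library 1 of wild type on JUb74. The related dsb-2 rose by 2.90 (adjusted p 0.000831, SE 0.478) with the diet in unk59, or by 3.59 when library 1 of unk59 on OP50 was left out.

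The gene him-5, which promotes breaks on the X chromosome, was at 1.33 and 1.71 CPM in wild type on OP50, 0.721 and 1.36 in wild type on JUb74, 1.07 and 1.24 in unk59 on OP50, 16.998 and 17.2 in unk59 on JUb74 and 15.4 and 25.9 in unk49 on OP50. The 6 libraries of the 3 lower groups lay between 0.721 and 1.71 CPM, and the 4 others between 15.4 and 25.9 CPM. It rose by 3.88 (adjusted p 7.81e-05, SE 0.382) with the diet in unk59 and by 3.76 (adjusted p 0.000337, SE 0.372) in unk49. The gene him-17, which encodes a chromatin-associated protein needed for breaks, behaved otherwise, at 34.1 and 36.1 CPM in wild type on OP50, 32.2 and 33.6 in wild type on JUb74, 29.8 and 27.6 in unk59 on OP50, 32.4 and 46.5 in unk59 on JUb74 and 79.1 and 53.2 in unk49 on OP50. Its values spanned less than those of any other of the 36 genes. Against wild type it passed in unk49 on OP50, with a rise of 0.92 (adjusted p 0.0114, SE 0.234). It passed in neither comparison of unk59, of which the one on OP50 had 0 of the 36 genes past the threshold.

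Repair genes had smaller medians than the synaptonemal complex genes, as had the kinase and ATPase genes (-0.30, 1.77 and 1.58 in the order below). Their median log2 fold change was -0.21 for the diet in wild type, 1.41 for the diet in unk59 and 1.74 in unk49 against wild type, where the synaptonemal complex genes had -2.01, 3.54 and 2.33. The nuclease gene mre-11 was at 13.7 and 15.5 CPM in wild type on OP50, 8.94 and 17.2 in wild type on JUb74, 8.02 and 6.49 in unk59 on OP50, 16.4 and 27.9 in unk59 on JUb74 and 66.6 and 34.2 in unk49 on OP50. It rose by 1.61 (adjusted p 0.0084, SE 0.415) with the diet in unk59 and by 1.79 (adjusted p 0.00696, SE 0.408) in unk49, the latter value being 1.09 (adjusted p 0.0728) without library 1 of unk49. The recombinase gene rad-51, whose protein coats the broken ends, rose in unk49 against wild type by 1.18 (adjusted p 0.019, SE 0.3403), and its lowest library was 9.47 CPM. For rad-50, the partner of mre-11, the diet in wild type gave 0.38 (adjusted p 0.622, SE 0.409), the one positive value among the 36. The genes com-1, which acts in end resection, and brc-1, the BRCA1 relative, rose in unk49 by 1.74 and 1.70, or by 1.06 and 1.10 without library 1.

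Among crossover genes, the RING-finger gene zhp-3 was at 2.93 and 4.59 CPM in wild type on OP50, 1.15 and 1.91 in wild type on JUb74, 1.62 and 1.96 in unk59 on OP50, 12.5 and 19.99 in unk59 on JUb74 and 28.1 and 28.8 in unk49 on OP50. It rose by 3.18 (adjusted p 0.000144, SE 0.363) with the diet in unk59 and by 2.91 (adjusted p 0.000549, SE 0.346) in unk49, while the log2 fold change in wild type on JUb74, -1.29 (adjusted p 0.0574, SE 0.363), did not pass. Its relative zhp-1 was at 0.917 and 1.35 CPM in wild type on OP50, 0.192 and 0.3396 in wild type on JUb74, 0.203 and 0.382 in unk59 on OP50, 5.05 and 9.48 in unk59 on JUb74 and 10.4 and 11.98 in unk49 on OP50. That gene rose by 4.60 (adjusted p 0.000114, SE 0.498) in unk59 on JUb74, the largest rise of this role, from 4 and 8 read pairs in unk59 on OP50. The crossover markers msh-5 and cosa-1 rose there by 1.97 (adjusted p 0.00118, SE 0.348) and 2.58 (adjusted p 0.00712, SE 0.643). In unk49, cosa-1 was at 13.4 and 5.30 CPM and rose by 2.32 (adjusted p 0.0109, SE 0.586), or by 1.37 (adjusted p 0.109) without library 1. For zhp-2 and zhp-4, whose exons overlap those of neighbours, the log2 fold changes in unk49 were 2.77 and 2.12, the former 1.85 without library 1.

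The kinase gene plk-2, whose protein gathers at pairing centres, was at 15.03 and 21.2 CPM in wild type on OP50, 13.5 and 17.4 in wild type on JUb74, 11.4 and 8.45 in unk59 on OP50, 21.2 and 31.04 in unk59 on JUb74 and 73.8 and 34.2 in unk49 on OP50. Its log2 fold change with the diet in wild type, -0.23 (adjusted p 0.753, SE 0.3703), did not pass, and it rose by 1.40 (adjusted p 0.0105, SE 0.378) with the diet in unk59 and by 1.58 (adjusted p 0.00818, SE 0.374) in unk49, or 0.78 (adjusted p 0.0842) without library 1. The gene pch-2 encodes an ATPase that remodels HORMA proteins, and it rose by 2.01 (adjusted p 0.000141, SE 0.229) with the diet in unk59 and 2.32 (adjusted p 0.000337, SE 0.227) in unk49. The values of chk-2, which encodes the kinase that starts pairing and break formation, were 1.604 and 2.93 CPM in wild type on OP50, 0.481 and 0.934 in wild type on JUb74, 1.12 and 0.239 in unk59 on OP50, 2.06 and 2.55 in unk59 on JUb74 and 5.61 and 4.55 in unk49 on OP50. Its rise in unk59 on JUb74, 1.77 (adjusted p 0.0323, SE 0.617), was 3.23 without library 1 of unk59 on OP50 and 1.03 (adjusted p 0.145) without library 2.

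A separate list held 32 other meiotic genes. Of these, 4 fell with the diet in wild type, 20 rose and 1 fell with the diet in unk59, and 24 rose and 1 fell in unk49 against wild type. Of all genes tested, 6.29% fell in the first comparison, 33.5% rose and 26.3% fell in the second, and 27.2% rose and 19.1% fell in the third. The 4 that fell in wild type were lab-1, sun-1, prom-1 and xnd-1. The gene prom-1, a regulator of meiotic entry, changed by a log2 fold change of -2.63 in wild type and 3.98 in unk59, and the nuclear envelope gene sun-1 by -2.42 and 3.57. By contrast, wapl-1, which releases cohesin, stood at log2 fold changes of -0.08 and -0.21 and did not pass in either. The ratio of the summed level of the 36 genes to that of these 32 was 0.395 and 0.426 in wild type on OP50, 0.209 and 0.305 in wild type on JUb74, 0.252 and 0.241 in unk59 on OP50, 0.845 and 0.947 in unk59 on JUb74, and 0.851 and 1.003 in unk49 on OP50.

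Markers of germ cells moved with these changes. Moulting genes, which mark developmental timing, were lowest in unk59 on JUb74 and unk49 on OP50. For the diet in wild type the median log2 fold change of the 11 moulting genes was 0.41, with values from -8.52 to 0.72. There 1 of them was called lower, as were 6.29% of all genes tested. For unk59 against wild type on OP50 their median was -0.17, with values from -0.88 to 0.48, and 0 were called. The part of these markers in the results was not tested. Genes of P granules, which mark germ cells, and germline Argonautes fell in 5 of 9 cases with the diet in wild type, rose in 9 of 9 with the diet in unk59 and in 7 of 9 in unk49 against wild type. Of all genes tested, 6.29% fell in the first of these comparisons, 33.5% rose in the second and 27.2% rose in the third. Their summed level was 446.7 and 535 CPM in wild type on OP50, 183.8 and 223 in wild type on JUb74, 194.2 and 139.4 in unk59 on OP50, 521 and 751 in unk59 on JUb74, and 1753 and 832 in unk49 on OP50. The 36 genes summed to 0.530 and 0.505 times that level in wild type on OP50, 0.597 and 0.731 times in wild type on JUb74, 0.662 and 0.776 times in unk59 on OP50, and 1.04 and 1.02 times in unk59 on JUb74. This ratio was thus higher in wild type on JUb74 and in unk59 on OP50 than in wild type on OP50, although the meiotic genes summed to less there. In unk49 on OP50 it was 0.691 and 1.21, on either side of the values in unk59 on JUb74. The ratio to the summed genes of the stem cell pool and meiotic entry differed the other way. It was 0.752 and 0.821 in wild type on OP50, 0.466 and 0.708 in wild type on JUb74, and 0.550 and 0.611 in unk59 on OP50.

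Genes of oocytes and eggshell (11 genes) summed to 80.5 and 87.6 CPM in wild type on OP50, 13.4 and 19.6 in wild type on JUb74, 18.5 and 15.6 in unk59 on OP50, 796 and 1940 in unk59 on JUb74, and 5567 and 1661 in unk49 on OP50. Sperm genes (11 genes) summed to 28.5 and 29.8, 1.83 and 2.89, 2.28 and 9.07, 170.0 and 176.7, and 164.2 and 82.5 CPM in the same order of groups. In wild type on JUb74, 5 and 3 of the sperm genes had 0 counts in library 1 and library 2, as had 4 in library 1 of unk59 on OP50. The 9 genes of the stem cell pool and meiotic entry summed to between 176.9 CPM, in unk59 on OP50, and 1518 CPM, in unk49 on OP50. Among them the meiotic entry factor gld-1 rose by 4.40 with the diet in unk59, and gld-2 stood at -0.70 without passing.

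Moulting genes (11 genes), which cycle with larval age, summed to between 3203 and 5918 CPM in the 6 libraries of wild type on either food and of unk59 on OP50. They summed to 153.9 and 233.8 CPM in unk59 on JUb74 and to 1126 and 847 CPM in unk49 on OP50. Marker genes of muscle, intestine and neurons (9 genes) summed to between 6341 and 10000 CPM in the first 3 groups, 4292 and 3090 CPM in unk59 on JUb74 and 4500 and 4737 CPM in unk49 on OP50. Somatic gonad genes (3 genes) summed to between 46.2 and 70.4 CPM in the first 3 groups, 42.6 and 39.8 CPM in unk59 on JUb74 and 30.5 and 27.9 CPM in unk49 on OP50. The groups with the highest meiotic gene levels were thus also those with the highest oocyte and the lowest moulting gene levels.

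**Figure D4:**
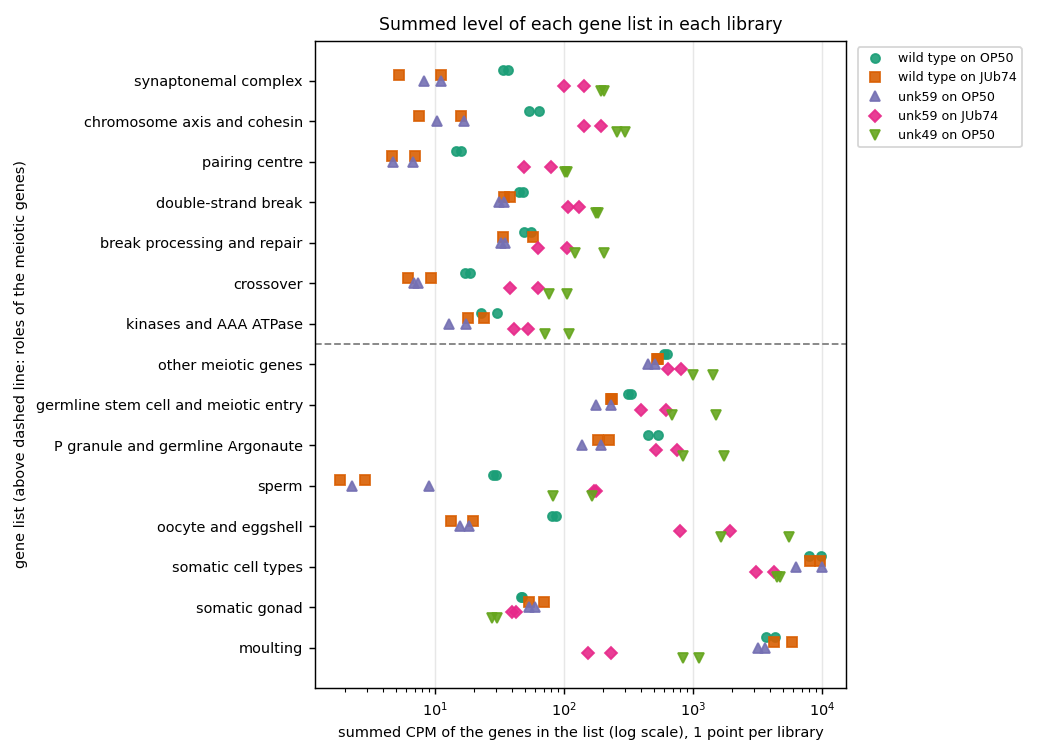
Summed CPM (log axis, 1 point per library, colours and shapes by group) of each role of the meiotic genes, above the dashed line, and of other gene lists, below it. The sums for unk59 on JUb74 and unk49 on OP50 lie highest for each meiotic role and for oocyte genes, and lowest for moulting genes.

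The libraries of unk49 on OP50 differed from each other gene by gene. Library 1 was higher for 26 of the 36 genes and library 2 for 10. The ratio of library 1 to library 2 ranged from 0.388 for spo-11, at 19.4 and 50.1 CPM, to 2.52 for cosa-1, at 13.4 and 5.30 CPM. Higher in library 2 were also him-8 (19.6 and 39.7 CPM), syp-3 (17.2 and 36.3), him-5 (15.4 and 25.9) and syp-2 (27.2 and 43.1). Oocyte genes were higher in library 1 for 11 of 11, P granule and Argonaute genes for 9 of 9 and sperm genes for 10 of 11. So were moulting genes for 10 of 11, and markers of muscle, intestine and neurons for 4 of 9. The share of all genes tested that were higher in library 1 was not computed. The 32 other meiotic genes were split as well, with 23 higher in library 1 and 9 in library 2, and ratios down to 0.422.

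Set side by side with unk49 on OP50, unk59 on JUb74 had mean levels that were lower for all 36 genes. The share of all genes tested with a lower mean was not computed. The ratio of the means was 0.903 for spo-11, 0.884 for htp-2, 0.861 for syp-3 and 0.829 for him-5, and the libraries of the groups overlapped for each of these. At the other end it was 0.433 for brc-1, 0.439 for mre-11 and 0.451 for zhp-2, without overlap. Some other genes overlapped too, among them him-8 and syp-2. These groups differ in both allele and food, and no test of this difference was made.

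**Figure D5:**
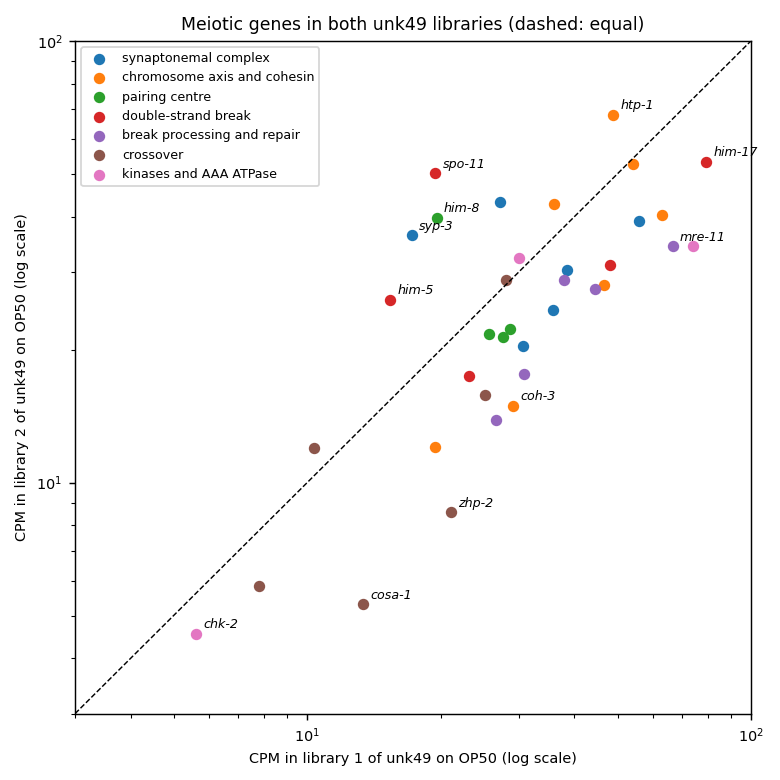
Level of each meiotic gene in library 2 against library 1 of unk49 on OP50, in CPM on log axes, coloured by role, with the line of equal levels dashed. Of the 36 genes, 26 lie below the line and 10 above it, among them spo-11, him-8, syp-3 and him-5.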

How the data were processed

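The data were 10 deposited tables of read counts per gene, 2 for each of 5 samples of whole L4 worms, with no normalization. STAR 2.7.10, DESeq2 and the build WBcel235 are named in the submitters' processing notes, and per the labels' protocols the paired libraries were made from TRIzol-extracted RNA. A further table linked to no sample (1 file) was not used. The labels' protocols describe a strand-specific kit, but the strand columns split genes evenly (median share 49.8% to 50.1%), so the column counted without regard to strand was used. Summary rows stayed out: 2.02% to 2.61% of pairs were unmapped, 2.28% to 3.49% mapped to several places, 0.350% to 0.537% lay in no gene and 1.72% to 1.85% fitted more than 1 gene. Counts were fitted in R 4.3.3 with edgeR 4.0.16 (TMM scaling, filterByExpr, a mean for each of 5 groups, robust quasi-likelihood F tests, two-sided), with Benjamini-Hochberg adjustment over 15950 genes and a threshold of 0.05. Standard errors come from the fold change and F. The test was run on simulated data in which 200 genes changed in 1 group. For the diet in unk59, 9545 genes were called, and the simulation does not cover changes that broad. Each table was treated as a library. Gene names, positions and exon lengths came from Ensembl release 115 (WBcel235), which held 46603 of 46778 IDs and all 36 genes. Genes were named by a rule that took related pairs, the gene of each role with the highest CPM, and the 3 largest rises and falls of each comparison. Others are named by role or as exceptions. The members and lists were chosen with earlier results of these data known. Alternatives were other scalings, filters, DESeq2 1.42.0, a strand column, smaller fits, a block by library number, and each library left out.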

Additional observations from a re-analysis of the deposited data

Results flagged for a closer look

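For 33 of the 36 genes the effect of the diet differed between unk59 and wild type by the interaction test. Of all genes tested, 23.3% had a more positive diet effect in unk59 and 20.0% a more negative one. The values here are the diet effect in unk59 minus that in wild type on the log2 scale. In the synaptonemal complex they were 5.62 for syp-1, 5.42 for syp-2, 5.37 for syp-3, 6.35 for syp-4, 5.25 for syp-5 and 5.51 for syp-6. Axis and cohesin genes had 6.86 for htp-1, 7.46 for htp-2, 5.37 for htp-3, 6.83 for him-3, 4.85 for rec-8, 5.45 for coh-3 and 4.46 for coh-4. Among the pairing-centre genes the values were 3.18 for him-8, 6.24 for zim-1, 6.75 for zim-2 and 5.28 for zim-3. Break formation genes gave 4.42 for him-5, 7.22 for spo-11, 6.94 for dsb-1 and 4.58 for dsb-2. Repair genes gave 1.77 for mre-11, 1.62 for com-1 and 1.64 for brc-1. Differences of crossover genes were 2.86 for msh-5, 3.97 for cosa-1, 6.65 for zhp-1, 6.63 for zhp-2, 4.46 for zhp-3 and 3.12 for zhp-4. Finally, the kinase and ATPase genes had 3.43 for chk-2, 1.63 for plk-2 and 2.31 for pch-2. Their adjusted p-values (edgeR, Benjamini-Hochberg) lay between 7.72e-05 and 0.0334. Of these values, 29 passed under every alternative. Germline, oocyte and moulting gene levels differed between the same groups, and their part in these differences was not tested.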

How the results depend on the processing

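Of 186 log2 fold changes past the threshold, 0 changed direction under any of the 19 alternatives, and 147 kept their call under all of them. The number of genes that fell in wild type on JUb74 (17) was 10 with library size alone, 10 with the compared groups alone, 10 with the library number as a replicate block, and between 1 and 19 with a library left out. For unk59 against wild type on OP50 (0), it was 5 without a filter, 17 under DESeq2, and between 0 and 1 with a library left out. Fits with a library left out or fewer groups hold fewer samples, and counts were higher in some of them and lower in others. The causes were not tested. All other counts of the 36 genes stayed within 1.5 times. The labels give no pairing, and the block changed the count of no other comparison by over 1.5 times. Over all genes, the calls for the diet in wild type (1426) were 2165 under DESeq2, 912 with the strand column, 579 with the block and between 13 and 1921 with a library left out. Those for unk59 against wild type on OP50 (2) were 102 without a filter, 434 under DESeq2, 1 under relative log expression scaling, 0 with the strand column, the block or the compared groups alone, and between 0 and 409 with a library left out. Those for unk49 against wild type (7392) fell to 4141 and 4292 without library 1 and library 2 of wild type on OP50. Scaling moved the median of all genes: for unk49 against wild type from 0.11 to -0.09 under upper-quartile scaling, when 47.4% instead of 58.8% of calls were higher, against unk59 from 0.03 to -0.12 (48.3% instead of 55.9%) or 0.20 (63.7%) with library size alone, and for the diet in unk59 from 0.08 to 0.31 with library size alone. Under each scaling 34 or 35 of the 36 genes rose in that last comparison. Low counts, down to 4 read pairs, limit the fold changes in the low groups.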
